A study of Mus musculus with 6 samples.

Results

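The C/EBP family genes were followed through the open chromatin of cultured mouse adipocytes. The 6 members, Cebpa, Cebpb, Cebpd, Cebpe, Cebpg and Ddit3, were chosen by name from 21827 protein-coding genes, and a peak was assigned to a member when its summit lay from 100 kb before to 100 kb after the gene. Peaks of all libraries that overlapped were joined into 194610 regions, of which 201 lay near a member. Stromal vascular fraction (SVF) cells, which hold the adipocyte precursors, came from male wild type C57 mice of 3 to 4 weeks and were collected at 7 days of differentiation. Beige and white adipocytes were both grown from subcutaneous adipose tissue, and brown adipocytes from brown adipose tissue, with 2 libraries for each. All 3 media began with insulin at 5 µg/ml and IBMX, which raises cAMP, at 0.5 mM. Beige and brown cells also received dexamethasone at 5 µM, T3 at 1 nM and rosiglitazone, a PPARγ agonist, at 1 µM. White cells received dexamethasone at 1 µM and neither T3 nor rosiglitazone. After 48 h, beige and brown cells were kept in insulin, T3 and rosiglitazone and white cells in insulin. Beige and white cells thus differed in medium, and beige and brown cells in tissue, while for brown against white cells tissue and medium cannot be told apart. The doses are those of the labels, and the study's methods state other insulin doses, which differ between beige and white cells. The brown libraries are titled in another format and are not described in the paper, so that tissue and a possible difference in submission cannot be told apart. ATAC-seq, in which a transposase cuts accessible DNA, was done on 50000 nuclei per library.

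C/EBP proteins are basic leucine zipper factors that bind DNA as dimers, with each other or with related factors such as ATF4. In adipogenesis, Cebpb and Cebpd are induced early by the hormonal cocktail and act ahead of Cebpa and Pparg, which maintain the adipocyte programme. Cebpe is known from granulocytes, Cebpg lacks a strong activation domain and acts through its partners, and Ddit3, also called CHOP, is induced by endoplasmic reticulum stress and can block the other members.

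The peak lists held between 109143 and 127490 peaks per library, and the brown lists were the shortest. A promoter peak was found in all 6 libraries at 9 of 10 adipocyte marker genes, the exception being Lep with a peak in brown 1. Of all protein-coding genes, 62.0% had one in all 6. The percentiles of the 9 markers ranged from 2.54, for Adipoq in beige 1, to 88.3, for Lipe in white 1. Plin1 was at 5.23 in white 2. Of 4 brown depot markers, Ucp1 had a promoter peak in brown 1 and brown 2 alone, at the 9.12 and 4.23 percentile. Zic1 had one in these and in beige 2, and Lhx8 and Ebf2 had one in all 6 libraries. Of 6 macrophage markers, Csf1r, Ptprc and Spi1 had none in any library, Adgre1 and Cd68 had one in all 6, and Cd14 had one in 4 libraries, at the 73.6 to 82.5 percentile of its list. Of 6 endothelial markers, Pecam1, Kdr and Tek had a peak in all 6 libraries, at the 65.6 to 89.8 percentile, Tie1 in 2, and Cdh5 and Emcn in none. Of 6 progenitor markers, Pdgfra, Pdgfrb, Dpp4 and Cd34 had one in all 6 libraries, Pi16 in 5 and Ly6a in none. The part of other cell types in the results was not tested. Each peak was described by its percentile of fold enrichment within its own list, where 100 is the strongest. White 2 stood apart from white 1 at the family promoters described below, so their orders are given with and without it. The promoters of other genes are given with both white libraries only.

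The sequences of 4 promoters show the DNA at or beside the peak at the start of each gene. They are the 200 bases before the RefSeq start (GRCm38.p6), 5′ to 3′ on the strand of the gene, and entries for 4 of the 6 genes were matched. Cebpd and Cebpe are named only. Capitals mark matches to 9 motifs searched on both strands. These were TTGCNNAA for C/EBP, TGATGCAA for the C/EBP-ATF composite, TGACGTCA for CREB, TGANTCA for AP-1, CCAAT for NF-Y, and those of the glucocorticoid receptor, PPARγ, EBF and CTCF by name. The C/EBP and composite motifs share the letters TTGC and can overlap.
Cebpa, chr7:35119093-35119292, plus strand: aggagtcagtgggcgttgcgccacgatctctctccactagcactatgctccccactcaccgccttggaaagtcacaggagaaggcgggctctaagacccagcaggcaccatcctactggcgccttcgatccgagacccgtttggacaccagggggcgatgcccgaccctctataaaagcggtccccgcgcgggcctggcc
Cebpb, chr2:167688715-167688914, plus strand: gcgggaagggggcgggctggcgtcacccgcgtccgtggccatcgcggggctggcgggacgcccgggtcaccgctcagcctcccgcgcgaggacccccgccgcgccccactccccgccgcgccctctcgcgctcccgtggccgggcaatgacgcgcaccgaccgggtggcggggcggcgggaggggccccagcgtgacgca
Cebpg, chr7:35056567-35056766, minus strand: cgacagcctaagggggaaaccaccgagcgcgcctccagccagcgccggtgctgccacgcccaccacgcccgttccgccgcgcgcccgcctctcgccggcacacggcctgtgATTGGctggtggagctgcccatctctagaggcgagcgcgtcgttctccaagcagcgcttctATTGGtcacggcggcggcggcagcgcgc
Ddit3, chr10:127290593-127290792, plus strand: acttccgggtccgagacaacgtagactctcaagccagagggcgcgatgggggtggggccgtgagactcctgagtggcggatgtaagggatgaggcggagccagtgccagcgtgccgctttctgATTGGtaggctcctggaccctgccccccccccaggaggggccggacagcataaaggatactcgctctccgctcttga

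Only the NF-Y letters occurred in these 4 windows. Cebpg held 2 matches, starting at -89 and -28 from the RefSeq start, and Ddit3 held 1 at -77. Of all 32851 RefSeq promoter windows of this length, 29.3% held an NF-Y match, 7.47% a C/EBP match, 5.48% an AP-1 match and 0.639% a composite match. The GC content was 63.5% for Cebpa, 82.0% for Cebpb, 72.0% for Cebpg and 64.0% for Ddit3.

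The distal sequences are those on which the contrasts below turn, 201 bases around the strongest summit on the plus strand of mm10. The first is the one confident difference between white and beige cells nearest to Cebpa, and the next 2 are the region after Cebpb that was ranked in the order brown, beige, white and a region before it that brown cells lacked. Then follow a region before Cebpd that brown cells lacked, one after it found in white cells only, and the region before Cebpe, whose promoter had no peak.
Cebpa, 27.5 kb before the start, chr7:35091691-35091891: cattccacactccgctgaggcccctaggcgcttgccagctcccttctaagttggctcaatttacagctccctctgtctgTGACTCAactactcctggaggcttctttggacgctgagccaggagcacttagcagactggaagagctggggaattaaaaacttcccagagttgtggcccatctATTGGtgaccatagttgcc
Cebpb, 24.7 kb after the start, chr2:167713501-167713701: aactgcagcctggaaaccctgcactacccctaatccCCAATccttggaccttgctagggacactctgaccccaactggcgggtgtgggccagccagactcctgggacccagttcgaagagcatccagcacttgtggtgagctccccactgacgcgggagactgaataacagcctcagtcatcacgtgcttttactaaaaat
Cebpb, 47.4 kb before the start, chr2:167641428-167641628: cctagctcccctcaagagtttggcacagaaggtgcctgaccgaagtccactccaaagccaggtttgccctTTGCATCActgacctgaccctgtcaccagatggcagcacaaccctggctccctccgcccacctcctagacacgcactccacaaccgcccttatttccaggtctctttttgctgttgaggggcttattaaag
Cebpd, 89.5 kb before the start, chr16:15797731-15797931: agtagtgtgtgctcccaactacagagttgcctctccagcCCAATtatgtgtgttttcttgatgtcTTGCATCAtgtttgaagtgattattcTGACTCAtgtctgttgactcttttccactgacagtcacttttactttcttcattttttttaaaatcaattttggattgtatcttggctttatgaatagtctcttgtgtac
Cebpd, 103.6 kb after the start, chr16:15990741-15990941: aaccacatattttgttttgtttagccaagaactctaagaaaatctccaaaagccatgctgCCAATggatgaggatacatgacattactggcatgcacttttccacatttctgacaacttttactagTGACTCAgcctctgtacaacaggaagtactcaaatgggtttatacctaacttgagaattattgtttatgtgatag
Cebpe, 2.12 kb before the start, chr14:54714190-54714390: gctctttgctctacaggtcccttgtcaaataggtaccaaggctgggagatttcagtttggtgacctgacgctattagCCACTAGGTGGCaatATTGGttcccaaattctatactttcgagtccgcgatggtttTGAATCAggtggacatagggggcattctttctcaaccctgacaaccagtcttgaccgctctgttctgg

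Cebpa and Cebpb lay in dense open chromatin, and Cebpd did not. The Cebpa window (gene at chr7:35119293-35121928) held 32 to 38 peaks per library, at the 88.1 to 95.7 percentile of all genes. The Cebpb window (chr2:167688915-167690418) held 31 to 43, at the 86.3 to 97.2 percentile. The median gene had 16 to 19. The Cebpd window (chr16:15887286-15891031) held 10 to 18 peaks, at the 27.4 to 49.6 percentile, with both brown libraries at 10 and 13. Cebpe (chr14:54710360-54712174) had 20 to 28, at the 60.4 to 75.1 percentile. Cebpg (chr7:35046422-35056573) had 26 to 31, at the 75.1 to 85.3 percentile. Ddit3 (chr10:127290774-127296288) had 27 to 34, at the 75.1 to 90.1 percentile.

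**Figure D1:**
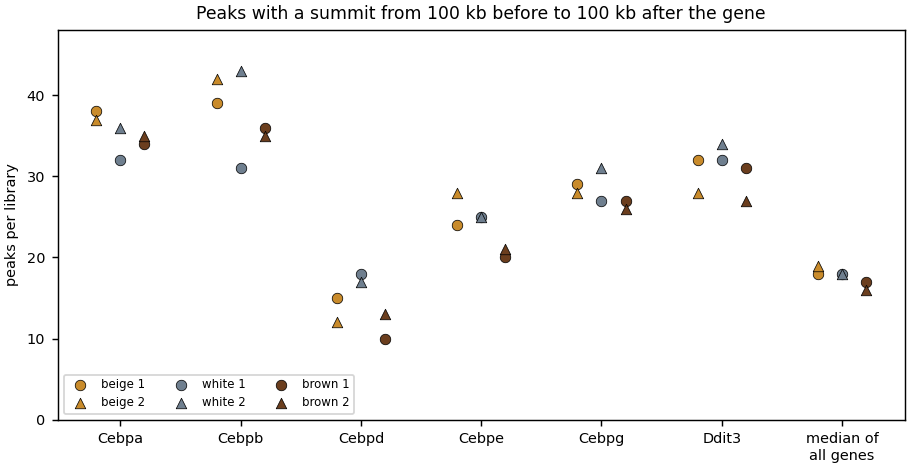
Peaks per library within 100 kb of each C/EBP family gene (vertical axis) beside the median of all genes, with colour for the condition and marker shape for the replicate. Cebpa and Cebpb reached 31 to 43 peaks in every library, and Cebpd 10 to 18.

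Regions in a window need not belong to its gene. The start sites of Cebpa and Cebpg lie 62.7 kb apart, and 35 regions were in both windows. Of the 201 regions, 97 (48.3%) had a member as the nearest gene by start site. The share nearest to the gene of the window itself was 70.0% for the 20 Cebpd regions and 57.1% for the 56 Cebpb regions. It was also 57.1% for the 42 Cebpg regions, and lower for Cebpa with 17 of its 50. In these shared windows, regions nearest to the other gene were not counted. The share was 20.0% for the 35 of Cebpe and 9.09% for the 33 of Ddit3, whose window holds 11 other genes. By place, 72 regions were intronic, 51 intergenic, 46 at a promoter, 23 in a noncoding gene and 9 in an exon or UTR.

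**Figure D2:**
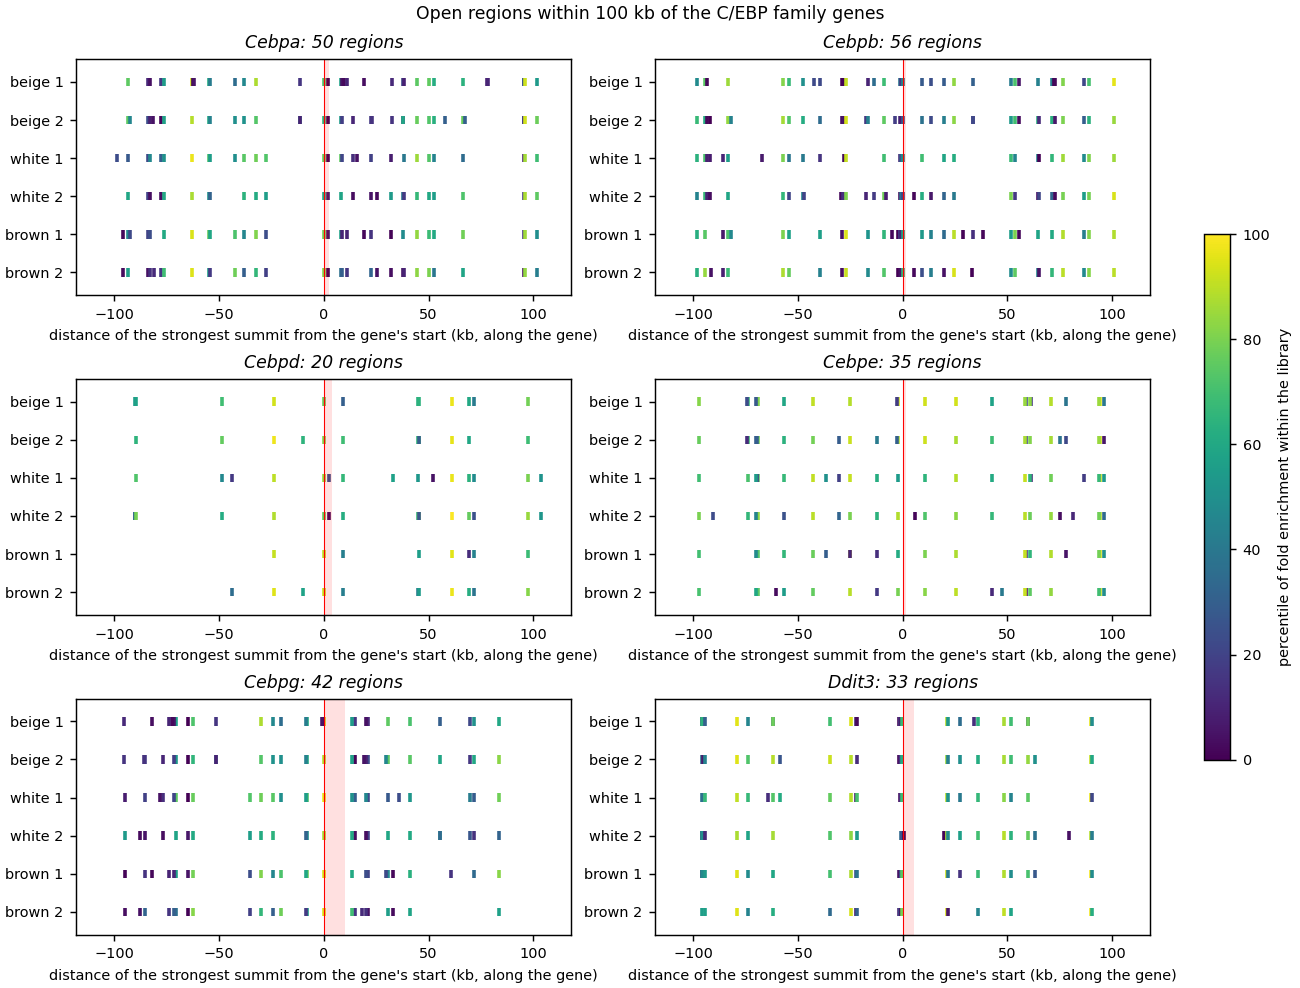
Regions in the window of each gene, with the distance of the strongest summit from the gene's start in kb on the horizontal axis, 1 row per library, and colour for the percentile of fold enrichment. The pink band is the gene, and the brown rows of Cebpd are empty over the regions 89.5 and 48.6 kb before the start that both beige and both white libraries held.

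Open promoters were shared by all conditions except at Cebpe. A peak lay within 1 kb of a start site of 5 of the 6 genes in all 6 libraries, and 62.0% of all protein-coding genes had one in all 6. Cebpe had none in any library. These promoter peaks were ranked by fold enrichment, and the order of conditions was read where both libraries of one lay above both of another. An exact permutation test of 2 libraries against 2 cannot give a two-sided p below 0.33, so no test was made and orders are set beside the share of all 13534 such promoters.

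Cebpb, the early activator, had the lowest promoter rank of the 5 genes in every library except white 2, where Ddit3 was lower. Its percentile was 46.5 and 28.4 in beige, 51.1 and 38.1 in white and 59.3 and 66.7 in brown. Both brown libraries lay above the other 4. The mean was 37.5 ± 12.8 (SD, n = 2) in beige, 44.6 ± 9.20 in white and 63.0 ± 5.29 in brown. Around the start, the summit lay 19 to 88 bp downstream in 5 libraries, while the strongest summit of white 2 lay at -617. In white 2 the peak at the start itself was at the 21.8 percentile. Ranked by -log10 q, the significance of the peak, Cebpb stood higher, at 90.6 and 86.0 in beige, 83.7 and 77.7 in white and 91.7 and 93.3 in brown. The median promoter of all genes also stood higher by this rank, at 93.3 and 93.5 in beige, 91.4 and 90.7 in white and 92.0 and 92.2 in brown, and Cebpb was above it in brown 2 alone.

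Cebpd, the other early activator, ranked higher. The percentile was 77.2 and 81.5 in beige, 84.0 and 76.1 in white and 90.3 and 91.8 in brown, again with both brown libraries on top. The mean was 79.3 ± 3.04 in beige, 80.1 ± 5.56 in white and 91.1 ± 1.07 in brown (SD, n = 2).

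Cebpa, the factor of the mature adipocyte, showed the same order. It was at the 71.9 and 65.5 percentile in beige, 76.6 and 60.3 in white, and 78.7 and 81.7 in brown. Beige and white overlapped, with means of 68.7 ± 4.51 and 68.4 ± 11.5 (SD, n = 2), against 80.2 ± 2.12 in brown.

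Cebpg had the strongest promoter peak, at 92.0 and 88.9 in beige, 96.9 and 87.2 in white and 94.2 and 94.9 in brown. Brown lay above beige, while the white libraries lay on either side of brown. Ddit3 was at 67.5 and 61.4 in beige, 68.6 and 33.5 in white and 74.1 and 79.6 in brown. The low white value was white 2, whose strongest summit lay at -857, and its peak at the start was at the 26.7 percentile.

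Brown thus ranked above beige at 5 of the 5 promoters, an order found at 33.4% of all promoters, and above white at 4, all but Cebpg, where the share of all promoters was 34.8%. No family promoter had the orders beige over white (28.6% of all), white over beige (19.8%), white over brown (14.9%) or beige over brown (17.3%). The median promoter of all genes was at 87.9 and 86.4 in beige, 87.3 and 84.4 in white and 88.3 and 89.7 in brown. The comparison of white with beige depended on the white library. Without white 2, white 1 lay above both beige libraries at 5 of 5 promoters and above both brown libraries at 1. Without white 1, white 2 lay below both beige libraries at 4. Ranking by -log10 q kept brown over beige at 4 of 5 promoters (15.3% of all) and brown over white at 4 (29.1%), and gave beige over white at 3, Cebpa, Cebpb and Ddit3 (35.8%).

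**Figure D3:**
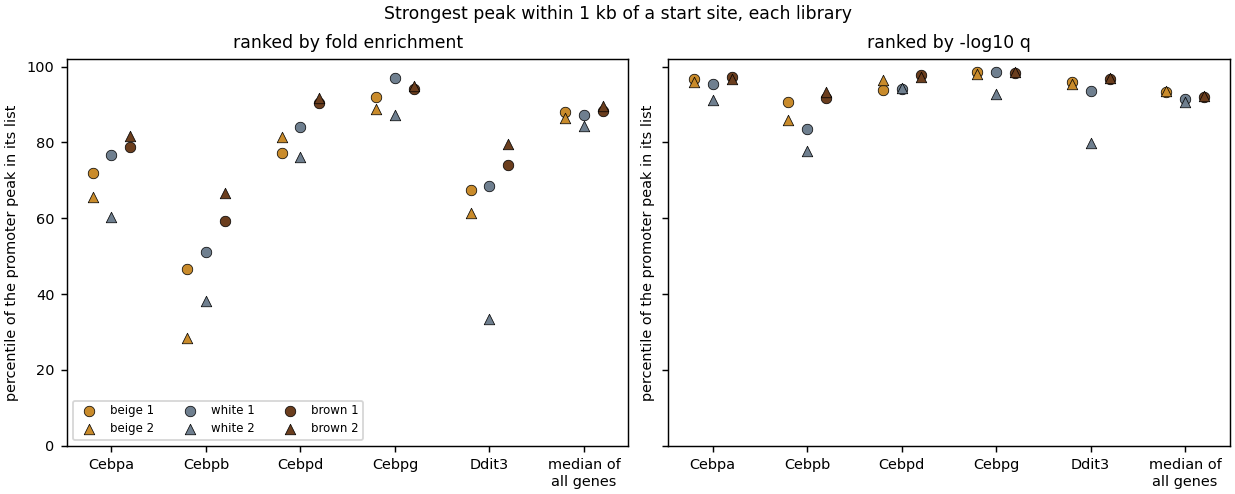
Percentile of the strongest peak within 1 kb of a start site in each library, ranked by fold enrichment (left) and by -log10 q (right), with the median of all genes at the far right. On the left the brown points lie above the beige points for all 5 genes, and white 2 is low at Ddit3 with 33.5.

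Around Cebpe, open sites lay away from the promoter. The region 2.12 kb before the start, printed above, was present in all 6 libraries at 92.5 and 88.9 in beige, 54.6 and 88.5 in white and 61.1 and 79.7 in brown. Both beige libraries were higher than the other 4, although white 2 came within the distance between the beige libraries. A neighbour 2.53 kb before the start had a peak in both beige libraries and in no other, with a -log10 q of 4.77 in beige 1 and 9.09 in beige 2. When the promoter was widened to 3 kb, Cebpe therefore entered with beige over white and beige over brown.

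Most regions near the family were shared by several libraries, and few separated the conditions. Of the 201 regions, 79 (39.3%) were present in all 6 libraries, against 30.2% of all regions, and 50 (24.9%) in 1 library, against 37.2%. A region was counted as differing when both libraries of one condition had a peak and neither of the other did. There were 10 such regions in beige and not white (4.98%, against 4.5% of all regions) and 4 in white and not beige (1.99%, against 1.98%). For brown, 6 were in brown and not white (2.99%, against 2.94%), 12 in white and not brown (5.97%, against 3.48%), 5 in brown and not beige (2.49%, against 1.56%), and 13 in beige and not brown (6.47%, against 4.8%).

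A difference was called confident when both peaks had a -log10 q of at least 5. This held for 19 regions, 8 of them with a member as the nearest gene, and 12 of the 19 had no peak in either brown library. Shares of all regions were computed for each pair of conditions and not for these joint counts. Of the 12, 9 were in white and not brown (4.48% of the 201, against 1.54% of all regions). Also of the 12, 8 were in beige and not brown (3.98%, against 2.68%). There were 5 in beige and not white (2.49% of the 201, against 2.48% of all regions) and 3 in white and not beige (1.49%, against 0.643%). For brown, 3 were in brown and not white (1.49%, against 1.38%) and 0 in brown and not beige (against 0.502%). The brown lists were the shortest, and with all lists cut to the same length the confident counts without brown were again 9 and 8. That cut drops the weakest peaks by -log10 q and cannot add a brown peak, so the part of list length was not tested.

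The strongest of these were open in all 4 libraries of subcutaneous cells and had no peak in brown. In introns of Prkdc, a DNA repair kinase gene next to Cebpd, the region 89.5 kb before the Cebpd start was at 57.5 and 64.6 in beige and 72.7 and 79.1 in white. A second, 48.6 kb before the start, was at 69.2 and 76.1 in beige and 46.7 and 61.4 in white. White was higher at the first and beige at the second. The sequence of the first, printed above, held the composite motif at -35 from its summit, AP-1 at -9 and NF-Y at -61.

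The same pattern was seen at Cebpe, Cebpb and Cebpg. The intergenic region 73.9 kb before Cebpe, nearest to the amino acid transporter gene Slc7a8, was at 67.7 and 69.0 in beige and 71.4 and 66.3 in white, and held a CTCF match. The region 47.4 kb before Cebpb, in an intron of Gm20431, was at 49.7 and 61.4 in beige and 40.8 and 47.9 in white. It held a composite match at -30 from its summit. Regions 93.1 kb before Cebpb (1.74 to 12.3) and 69.0 kb after the Cebpg start in a Pepd intron (16.2 to 42.1) were weaker. Partly shared regions without brown lay 91.8 kb before Cebpb, 95.3 kb after Cebpa at the Lrp3 promoter and 54.9 kb after the Cebpg start.

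Regions of white cells alone lay at Cebpd. The one 103.6 kb after its start, in an intron of Spidr, was at 51.4 in white 1 and 52.7 in white 2, with -log10 q of 10.5 and 11.4. The other, 2.40 kb after the start in the UTR annotation of Cebpd, was at 24.9 and 2.32. The first held AP-1 and NF-Y matches.

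At Cebpa, the intergenic region 27.5 kb before the start separated white from beige. It was at 72.9 and 55.6 in white, at 23.5 and 18.8 in brown, and absent from both beige libraries. It was thus strongest in white, weak in brown and not called in beige, and held an AP-1 match at -21. The region 11.2 kb after Cebpa separated brown from white instead. It was at 9.85 and 15.4 in brown and 10.3 in beige 1, with no peak in white.

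Regions that white cells lacked were generally of low rank. The highest lay 16.3 kb before Cebpb, in an intron of Tmem189, at 10.1 and 43.4 in beige and 51.7 and 47.6 in brown. At 33.8 kb after Cebpb, in a lincRNA, the percentile was 30.2 and 21.5 in beige and 13.7 in brown 1. A region 1.85 kb before Ddit3, at the promoter of its neighbour Mbd6, was at 1.75 and 0.818 in beige and 4.76 and 9.65 in brown. Its -log10 q nevertheless ranged from 11.2 to 20.5. The rest lay 58.7 kb after Cebpe at the Acin1 promoter and 77.8 kb after it in a Cdh24 intron. A region 72.8 kb after Cebpb was called in both beige libraries alone, at 1.80 and 6.31.

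**Figure D4:**
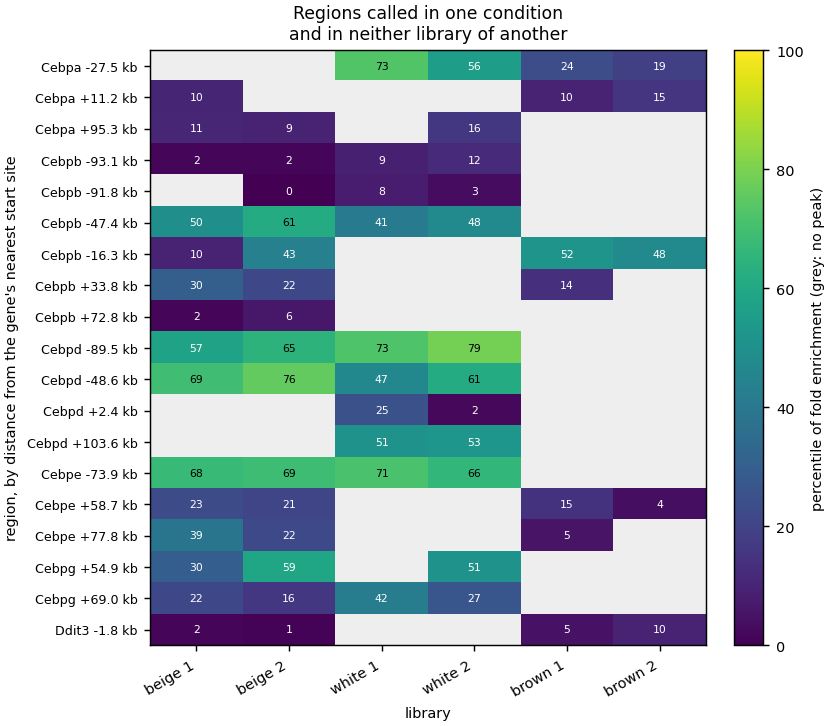
Percentile of fold enrichment of the 19 confident regions (rows, by gene and distance from its start) in the 6 libraries (columns), with grey where no peak was called. The brown columns are empty for 12 rows, among them both regions before Cebpd, and the Cebpa region 27.5 kb before the start is grey in beige.

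The distal regions with the highest mean percentile over the 6 libraries are given next. A missing peak counted as 0 in that mean, so their presence in all libraries follows from the choice. One lay 61.1 kb after the Cebpd start, in a Spidr intron, at 97.2 and 96.3 in beige, 96.7 and 99.5 in white and 95.5 and 96.9 in brown. It held none of the motifs. The intronic region 24.9 kb before Cebpe was at 80.0 to 96.5, and the intergenic one 100.6 kb after Cebpb at 84.4 to 96.0. The region 76.5 kb after Cebpb was at 79.4 to 89.8, and brown lay above the other 4 libraries there. Between Cebpa and Cebpg, the region 30.2 kb before Cebpg was at 61.0 to 87.7, and one 44.5 kb after Cebpa at 66.8 to 85.2. Several of the strongest were promoters of other genes, as Tmem189 near Cebpb, Mzt2 near Cebpd, Acin1 and Psmb5 near Cebpe, Lrp3 near Cebpa, and Pip4k2c, Mars and R3hdm2 near Ddit3. The remaining strong regions lay 97.3 kb after the Cebpd start (68.1 to 84.5), 7.92 kb before the Cebpg start (50.9 to 77.7) and 82.8 kb after it (31.3 to 82.8).

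Rank within the 79 regions of all libraries was mixed, and near the rates of all 58720 such regions. Beige was over white in 20 (25.3%, against 25.8%) and white over beige in 13 (16.5%, against 22.1%). Brown was over white in 20 (25.3%, against 22.7%) and white over brown in 16 (20.3%, against 23.9%). Brown was over beige in 21 (26.6%, against 24.0%) and beige over brown in 17 (21.5%, against 27.3%). Of the 79, 37 had a member as the nearest gene. Ranked by -log10 q, brown was over beige in 24.1% of the 79 and beige over brown in 30.4%. Brown was over white in 25.3% and white over brown in 26.6%. In both pairs the more frequent order turned, but shares of all regions by this rank were not computed. Among all promoters, this rank gave brown over beige at 15.3% and beige over brown at 34.4%. It gave brown over white at 29.1% and white over brown at 23.0% of them.

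The next regions were chosen after their values were seen. After Cebpb, neighbouring regions took different orders. The lincRNA region 24.7 kb after the start was at 83.5 and 82.5 in beige, 62.1 and 40.8 in white and 89.8 and 94.1 in brown. The region 53.8 kb after it was at 71.3 and 69.3 in beige, 45.1 and 16.3 in white and 80.5 and 75.03 in brown. In both, brown was highest and white lowest, with no overlap. The neighbouring region, 51.8 kb after the start, was at 41.6 and 53.7 in beige, 67.7 and 80.1 in white and 54.8 and 48.1 in brown. There white was highest.

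White was also highest at other members. The region 24.5 kb before Cebpg was at 46.7 and 51.2 in beige, 74.0 and 64.3 in white and 45.9 and 30.1 in brown. At 8.02 kb after Cebpa the values were 57.0 and 53.7 in beige, 75.3 and 58.3 in white and 57.2 and 36.2 in brown, so white 2 lay just above the rest. Beige was highest 29.9 kb after the Cebpg start, at 75.4 and 75.3, against 27.7 and 59.3 in white and 47.0 and 55.5 in brown.

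**Figure D5:**
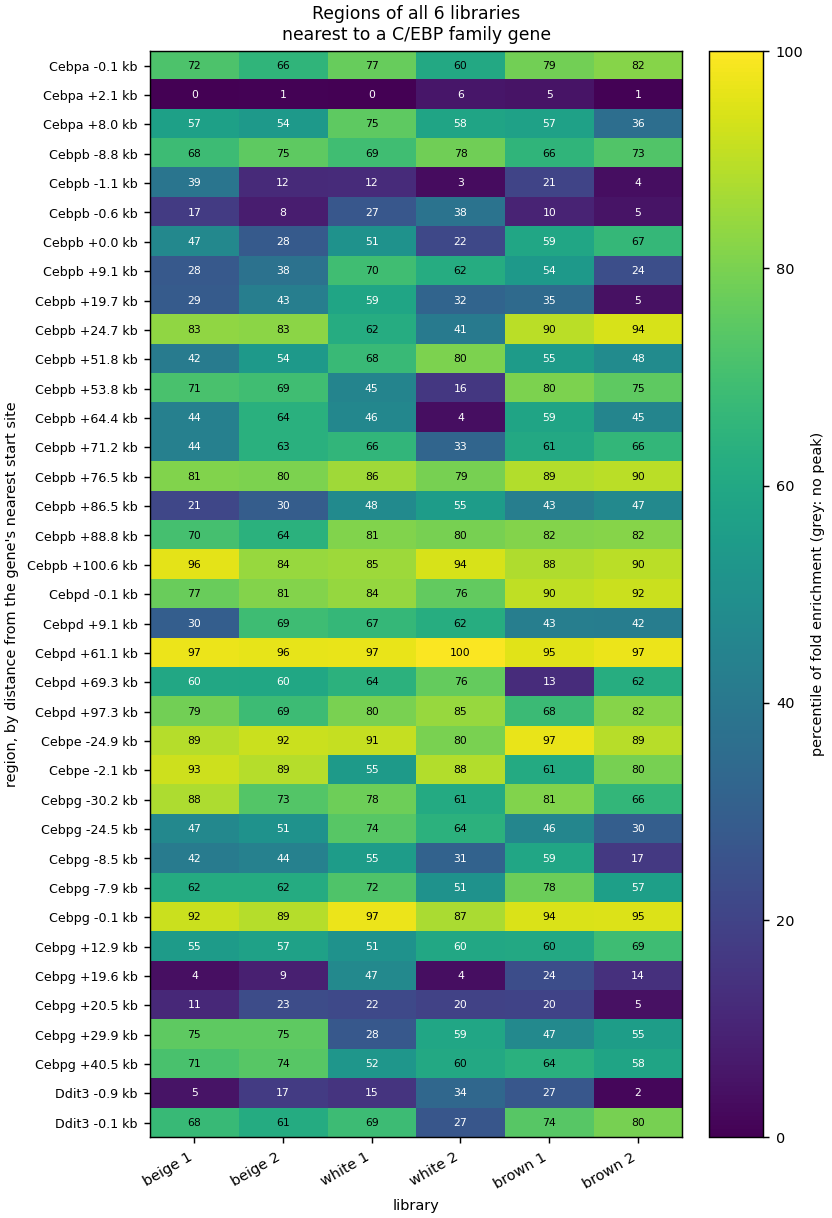
Percentile of fold enrichment (numbers and colour) in the 6 libraries for the 37 regions called in all of them with a C/EBP family gene as the nearest gene, by gene and distance from its start. The Cebpb rows at 24.7 and 53.8 kb are darkest in white, and the row at 51.8 kb is brightest there.

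The share of regions with the C/EBP motif itself was about the same near the family as among all open regions. In the 201 bases around the summit, 21 of 201 regions (10.4%, 95% Clopper-Pearson interval 6.58 to 15.5) held TTGCNNAA, against 12.6% of all 194610 regions. Of the 21, 14 had a member as the nearest gene, 6 were present in all libraries and 0 were confident differences. The AP-1 letters were found in 30 (14.9%, 10.3 to 20.6) against 21.2%, and the NF-Y letters in 46 (22.9%, 17.3 to 29.3) against 24.8%. The composite occurred in 3 regions (1.49%, against 1.35%), the CREB motif in 1 (0.498%, against 0.649%) and the EBF motif in 3 (1.49%, against 1.39%). The glucocorticoid receptor motif was in 1 (0.498%, against 0.621%). The PPARγ motif was in 0, which allows a share of up to 1.82%, against 0.056% of all regions. CTCF, a motif added after the values were seen, was in 19 (9.45%, 5.79 to 14.4), against 5.79% of all regions. These intervals cover counting error only, and regions of one window are not independent.

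The 53 other genes of the pathway, of which 52 were matched by symbol, mostly had open promoters too. A peak was present in all 6 libraries at 48, and 62.0% of all protein-coding genes had one in all 6. Of these 48, brown ranked over beige at 30 (33.4% of all promoters had this order), beige over brown at 3 (17.3%), white over beige at 18 (19.8%), beige over white at 7 (28.6%), brown over white at 18 (34.8%) and white over brown at 7 (14.9%). By role, brown was over beige at 9 of 12 inducers and upstream factors, 9 of 14 partners and cofactors, 5 of 10 adipocyte targets and 7 of 12 genes of the stress response with a peak in all 6 libraries.

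Prdm16, a partner of C/EBPβ in brown fat, was lowest in beige, at 3.96 and 2.82, with 48.0 and 31.1 in white and 15.2 and 11.3 in brown. Zfp423, a preadipocyte factor, was at 31.2 and 15.9 in beige, 54.2 and 45.8 in white and 35.6 and 38.9 in brown. Scd1, a fatty acid desaturase, was at 60.6 and 53.5 in beige, 85.9 and 84.7 in white and 72.8 and 77.0 in brown. At all 3, white was highest and beige lowest.

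Brown was highest at Adipoq, which encodes adiponectin, with 2.54 and 24.8 in beige, 15.6 and 46.7 in white and 62.1 and 58.2 in brown. Cidec, a lipid droplet protein gene, was at 46.1 and 43.1 in beige, 46.6 and 29.2 in white and 63.5 and 75.3 in brown. Klf4, an early adipogenic factor, was at 62.2 and 46.2 in beige, 50.6 and 36.3 in white and 67.9 and 70.8 in brown. The remaining genes with a partial pattern were Batf in 2 libraries, Pck1 in 4, Lep in 1 and Ucp1 in 2.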

How the data were processed

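The authors trimmed reads with Trimmomatic, aligned them to mm10 with BWA and called peaks with MACS2 in each library separately. These steps are described for the beige and white libraries, and for the brown libraries the submitters' processing notes name the aligner, the peak caller and the build. The deposited lists give for each peak a fold enrichment, the ratio of its summit pileup to local background within that library, an integer score that was not used, and a -log10 q-value, which was at least 1.30 in these lists. The lists hold no read counts. The study's reporting summary gives read totals and mapped shares for the beige and white libraries, with a lower mapped share in beige, and these were not used here. Chromosome names of the lists and of GENCODE vM21 (GRCm38) matched.

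Peaks on the 19 autosomes, X and Y were used, with 1 summit per interval (the highest -log10 q). Intervals overlapping by at least 1 bp were joined over the 6 libraries. Promoters were within 1 kb of a start site. Motifs were searched 100 bp to each side of the strongest summit, with pysam 0.24.0. Scripts ran in Python 3.11.15 with pandas 2.3.3 and scipy 1.17.1, and were tested on simulated data. Named regions were all promoter regions, all confident differences (at most 20) and the 3 strongest distal regions of each gene. Of the other pathway genes, at most 6 were named, by the size of the difference from white. Other regions were chosen after their values were seen. The members and lists were chosen with earlier results of these data known. Alternatives were stricter q-values, equal list lengths, other windows, promoters and joins, ranking by -log10 q, and leaving out each library.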

Additional observations from a re-analysis of the deposited data

How the results depend on the processing

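Of 476 values recomputed under alternatives, 379 stayed within their limits and 97 moved. These are single counts and percentiles, which have no sign. The balance of opposite orders did turn for white against beige promoters with the white library left out. It also turned for brown against beige and brown against white regions when ranked by -log10 q. No share of all regions was set beside that turn. With q under 0.00001, 0 regions were in brown and not beige, with equally long lists 3, and with summits within 150 bp joined 8. A window of 50 kb gave 116 regions, 41 of them in all libraries, 6 in beige and not white, 6 in white and not brown and 7 in beige and not brown. A window of 200 kb gave 338, 132 in all libraries, 17 in beige and not white, 7 in white and not beige and 21 in beige and not brown. With a promoter of 3 kb, beige was over white at 1 promoter and over brown at 1, and ranking by -log10 q put beige over white at 3. The share with a C/EBP match was 6.47% with 50 bp to each side and 19.4% with 250 bp. The narrower and wider windows change these counts by their construction.

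Leaving out 1 library at a time removes the need for a second peak in that condition, so counts grow by construction. They ranged from 10 to 24 for beige and not white, 4 to 19 for white and not beige, 6 to 17 for brown and not white, 12 to 34 for white and not brown, 5 to 13 for brown and not beige, and 13 to 33 for beige and not brown. Promoter orders ranged from 0 to 4 for beige over white, 0 to 5 for white over beige, 0 to 1 for white over brown, and 4 to 5 for brown over white, with 5 for brown over beige throughout. White 1 and white 2 set the first 3 of these ranges. No paired analysis was possible because the results are descriptions with no model to hold a block, and the labels do not say that equal replicate numbers share an animal or a day. With 2 libraries per condition and peak lists without reads, the absence of a peak says only that none was called.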
